A study of Mus musculus with 12 samples.

Results

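The 10 genes Prrx1, Prrx2, Twist1, Twist2, Snai1, Snai2, Zeb1, Zeb2, Foxc1 and Foxc2 encode transcription factors known for their part in epithelial-to-mesenchymal transition (EMT). They were taken by name from the table of 57010 genes, and all 10 were found there. Of these, 9 passed the filter on low counts and were among the 16502 genes tested. Foxc2 did not pass.

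Bulk mRNA-Seq was done on NE-4C cells, a neural progenitor line from the brain of mouse embryos at day 9 that lacks p53. Wildtype (WT) cells and a Faf2 knockout (KO) line were compared. FAF2 is an adaptor in the endoplasmic reticulum that helps to clear misfolded proteins. Each genotype was collected untreated at day 0 (WT NO, KO NO) or at day 3 (WT RA, KO RA). The RA groups had received 1 µM all-trans retinoic acid for 24 h and basal media after that. Each of these 4 groups has 3 libraries from 3 independent passages. The knockout removes exon 4 of Faf2 by CRISPR-Cas9 and was picked as a colony, so clone and genotype cannot be told apart, nor can RA and the day of collection. All 4 groups share the p53-deficient background. In a bulk library a change in the number of cells of one type and a change in RNA per cell cannot be told apart.

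In EMT, cells lose the cadherin and tight junction proteins of an epithelium and gain the filaments, matrix proteins and motility of mesenchyme. Snail and Zeb factors are zinc finger repressors that bind E-boxes, among them those of the E-cadherin gene Cdh1, while Twist factors are basic helix-loop-helix proteins that bind E-boxes as dimers with E proteins. PRRX1 and PRRX2 are paired-type homeodomain factors of limb and craniofacial mesenchyme, and FOXC1 and FOXC2 are forkhead factors of head, heart and vascular mesenchyme. RA acts through nuclear receptors that bind repeats of AGGTCA-like elements.

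The promoters of 3 members and of Cdh1 are shown because Prrx1 had the largest log2 fold change among the members after RA, because Snai2 and Snai1 belong to one family and differed in their response, and because Cdh1 is the known target of the Snail and Zeb repressors. Each window holds the 250 bases before the start of the canonical transcript, as 5′ to 3′ of the coding strand in GRCm39. Capitals mark AGGTCA in Prrx1 and E-boxes, CANNTG, in the others, with matches counted on both strands. The windows are chr1:163142034-163142283 on the reverse strand for Prrx1, and chr16:14523175-14523424, chr2:167379863-167380112 and chr8:107329733-107329982 on the forward strand for Snai2, Snai1 and Cdh1.
Prrx1: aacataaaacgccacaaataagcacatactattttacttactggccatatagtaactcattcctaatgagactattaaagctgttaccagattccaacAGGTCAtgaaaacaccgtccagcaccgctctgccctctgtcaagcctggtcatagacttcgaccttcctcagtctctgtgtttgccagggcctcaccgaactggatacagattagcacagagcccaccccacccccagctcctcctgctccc
Snai2: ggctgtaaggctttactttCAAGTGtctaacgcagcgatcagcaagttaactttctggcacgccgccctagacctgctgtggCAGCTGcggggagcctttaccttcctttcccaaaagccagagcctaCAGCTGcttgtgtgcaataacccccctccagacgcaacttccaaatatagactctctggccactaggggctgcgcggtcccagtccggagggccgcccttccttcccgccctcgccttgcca
Snai1: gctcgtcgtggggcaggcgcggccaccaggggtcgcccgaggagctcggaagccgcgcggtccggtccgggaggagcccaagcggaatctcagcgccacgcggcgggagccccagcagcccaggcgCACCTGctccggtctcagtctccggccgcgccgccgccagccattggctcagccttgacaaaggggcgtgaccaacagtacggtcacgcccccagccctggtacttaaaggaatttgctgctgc
Cdh1: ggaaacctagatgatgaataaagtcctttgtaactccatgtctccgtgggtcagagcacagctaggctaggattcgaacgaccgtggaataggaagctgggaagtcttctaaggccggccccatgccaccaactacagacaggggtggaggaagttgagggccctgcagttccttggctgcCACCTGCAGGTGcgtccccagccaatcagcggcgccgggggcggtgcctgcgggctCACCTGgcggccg

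Prrx1 was the 1 member whose window held AGGTCA, with its first base at position -152 from the start, and 13.1% of 21757 promoters of protein-coding genes held that element. The Snai2 window held 3 E-boxes at -231, -168 and -122, of which the last 2 read CAGCTG. In Snai1 there was 1 E-box, CACCTG, at -124. The Cdh1 window held 3 matches to CACCTG on either strand, at -69, -63 and -13. CANNTG was found in 64.8% and CACCTG in 17.7% of all such promoters, and both CACCTG and CAGCTG are also matches to CANNTG. Among the 10 members, 4 windows (Snai1, Snai2, Zeb1 and Foxc2) held CANNTG. These matches describe letters in the windows, not binding.

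Prrx1 lies on chromosome 1 at 163041844 to 163142033 of GRCm39 on the reverse strand. Prrx2 lies on chromosome 2 at 30724984 to 30774419, Twist2 on chromosome 1 at 91729176 to 91796542, and Snai2 on chromosome 16 at 14523425 to 14527252, all on the forward strand. Their relatives Twist1 (chromosome 12, 34007645 to 34009828) and Snai1 (chromosome 2, 167380113 to 167384734) are short genes with 2 and 3 exons in the canonical transcript. Zeb1 (chromosome 18, 5591851 to 5775467) and Zeb2 (chromosome 2, 44873644 to 45007464) are long, and Foxc1 (chromosome 13, 31990616 to 31996459) and Foxc2 (chromosome 8, 121842910 to 121845634) have 1 exon each. The exons of Zeb2 overlap those of Zeb2os on the opposite strand, which had up to 99.4 counts in a library. Zeb1os1 and Gm29100, which overlap exons of Zeb1 and Twist2 from the opposite strand, had at most 13.3 and 3.66 counts. Whether the counting used strand is not given in the sources used here, so the split of reads between Zeb2 and Zeb2os is uncertain.

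The deposited values are estimated counts per gene, corrected for gene length and so not numbers of fragments. They are given here as CPM, counts scaled to a common library size with TMM factors. Totals were 17370069 to 30738717 counts per library, and 3 counts, taken as the floor of detection, were 0.0838 to 0.297 CPM. KO RA replicate 3 had a TMM factor of 0.394, and the 11 remaining factors were 0.872 to 1.28. This library also stood apart from the other libraries of its group, with a median absolute log2 difference of 1.20 per gene against 0.188 to 0.664 elsewhere, so counts of calls are given with and without it. Leaving it out also raised the share of all genes called, to 10.8% in WT and 16.0% in KO after RA, of 17327 genes then tested. The 8 neural progenitor markers were above the floor in every group and summed to 256 to 303 CPM in WT NO. Their sum was 279 to 316 CPM in WT RA, 256 to 290 CPM in KO NO and 175 to 341 CPM in KO RA. Cyp26a1, an enzyme that degrades RA and is a direct RA target, rose after RA in WT (log2 fold change 2.49, standard error 0.39, adjusted p = 0.0339) and in KO (3.72, standard error 0.39, adjusted p = 0.000620) by edgeR's quasi-likelihood test. Of 9 RA target genes tested, 1 rose in WT, and 3 rose and 1 fell in KO, with medians of 1.20 and 0.59, against 0.406% and 5.48% of all genes called. Of 10 tested when KO RA replicate 3 was left out, 3 rose in WT, and 3 rose and 1 fell in KO. The receptor gene Rarb had 1.95 in WT (adjusted p = 0.111, and 0.0241 without KO RA replicate 3) and 1.50 in KO (adjusted p = 0.0824), while Dhrs3, for a retinal reductase, had 0.43 in WT (adjusted p = 0.642) and fell by 1.43 in KO (adjusted p = 0.0256). The others that rose in KO were Stra6 (5.68, adjusted p = 0.00474) and Crabp2 (2.38, adjusted p = 0.00873). Faf2 was at 36.0 to 50.0 CPM in WT NO and 21.0 to 25.4 CPM in KO NO, and at 35.1 to 49.1 CPM in WT RA and 18.7 to 36.1 CPM in KO RA. A count over the whole gene does not show whether exon 4 is present.

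**Figure D1:**
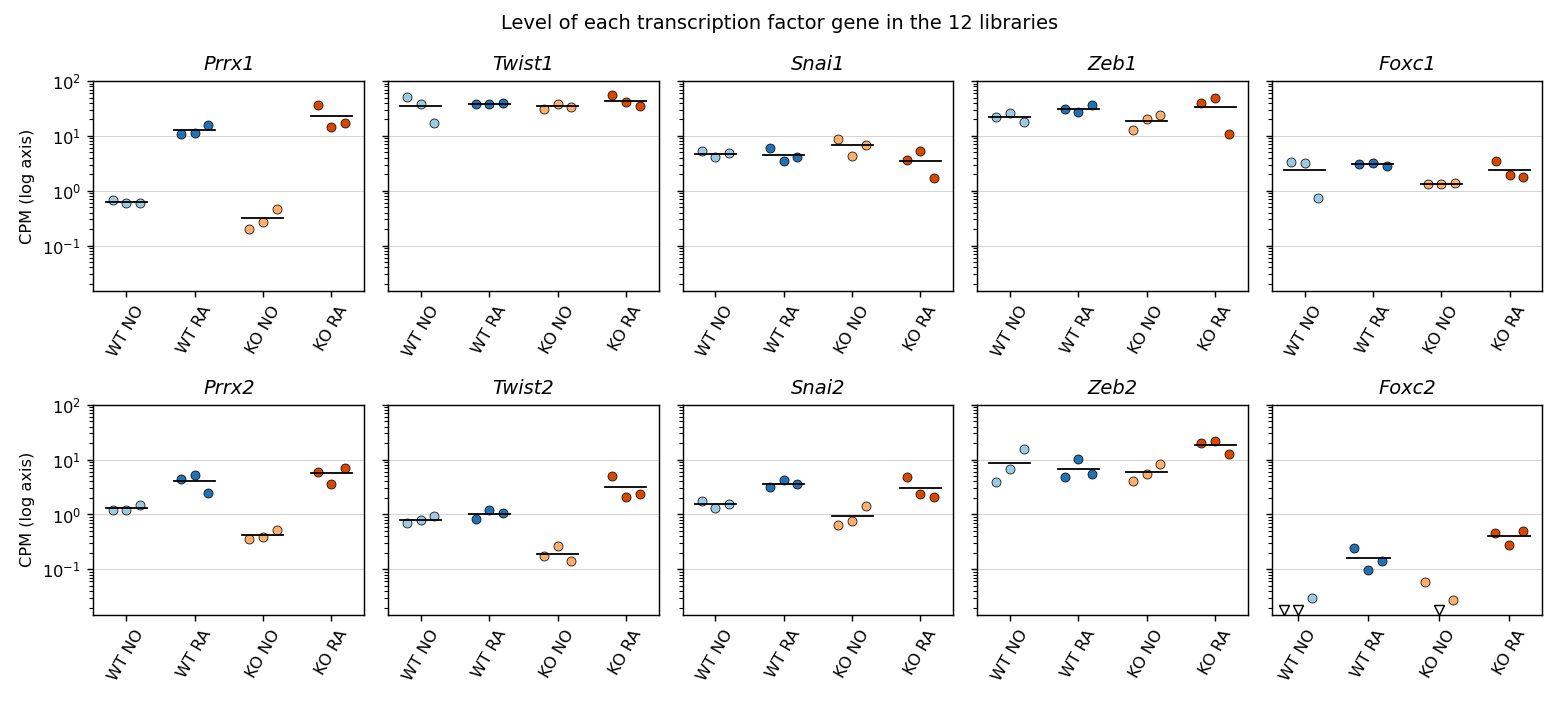
Level of each of the 10 genes in CPM (log axis) in the 12 libraries, with a point per library and a line at the group mean. Open triangles at the bottom stand for libraries at 0, and such groups have no line. Prrx1 lies at 0.205 to 0.669 CPM in the 6 untreated libraries and at 10.7 to 37.1 CPM in the 6 RA libraries.

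With TMM factors, the 2 Prrx genes and Snai2 were higher after RA than before in every library of both genotypes. Twist2 was higher in every library of the KO. In WT, 1 of the 9 members tested passed the test, Prrx1, where 0.321% of all genes passed as higher, 0.0848% as lower and 0.406% in either direction. In KO, 4 members passed as higher (Prrx1, Prrx2, Twist2 and Snai2) and none as lower, where 3.89% of all genes passed as higher, 1.59% as lower and 5.48% in either direction. At unadjusted p under 0.05, 3 members were higher in WT (Prrx1, Prrx2 and Snai2) and none lower, against 6.76% and 5.79% of all genes and 12.5% in either direction. In KO 5 members were higher at that threshold and Snai1 was lower, against 15.8% and 9.42% of all genes and 25.2% in either direction. Of the genes called in KO, 71.0% were higher, and 87.9% were higher when library totals were used without TMM factors. The median log2 fold change of the 9 members was 0.34 in WT and 1.62 in KO, and that of all genes tested was -0.01 and 0.11. With no overlap between groups, 4 of 9 members were higher after RA in WT (15.1% of all genes) and 6 of 9 in KO (13.2% of all genes). None was lower without overlap, as 14.0% of all genes were in WT and 17.0% in KO. The separations of higher members depended in part on TMM factors. With library totals, Snai2, Zeb2 and Foxc1 overlapped between KO NO and KO RA through KO RA replicate 3. Zeb1 then overlapped in WT, with WT RA as low as 27.0 CPM and WT NO as high as 28.5 CPM. Without KO RA replicate 3, which also enters the shared estimate of spread, 2 members were called in WT and 6 in KO, all higher. Of all genes 5.65% were then called as higher in WT and 8.48% in KO.

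Prrx1, the homeodomain factor, was at 0.669, 0.591 and 0.610 CPM in WT NO and at 10.7, 11.3 and 15.9 CPM in WT RA. In KO NO it was at 0.205, 0.267 and 0.475 CPM, and in KO RA at 37.1, 14.5 and 16.8 CPM. Every RA library lay above every untreated library, and the untreated KO libraries lay below the untreated WT libraries. Prrx1 rose in WT by a log2 fold change of 4.33 (standard error 0.44, 20.1-fold, adjusted p = 0.00531, edgeR's quasi-likelihood test), and no gene of the 16502 had a smaller p in that comparison. In KO it rose by 6.15 (standard error 0.48, 71.1-fold, adjusted p = 0.000168), with rank 3 by p. The values without KO RA replicate 3 were 4.33 (adjusted p = 0.000530) and 6.31 (adjusted p = 4.94e-05). The call in WT was lost without WT NO replicate 1 (adjusted p = 0.0562) and with library totals in place of TMM factors (adjusted p = 0.0745), at log2 fold changes of 4.38 and 4.07. The untreated levels rest on 15.9 to 20.1 deposited counts per library in WT and 7.37 to 17.0 in KO.

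Prrx2, the paralog of Prrx1, was at 1.20, 1.18 and 1.50 CPM in WT NO and at 4.47, 5.14 and 2.44 CPM in WT RA. Its levels in KO NO were 0.352, 0.385 and 0.530 CPM, and in KO RA 6.004, 3.65 and 7.14 CPM. The RA libraries lay above the untreated libraries in both genotypes. The log2 fold change was 1.63 in WT (standard error 0.38, adjusted p = 0.0961), which did not pass the test, and 3.71 in KO (standard error 0.41, 13.0-fold, adjusted p = 0.000970), which did. The WT value without KO RA replicate 3 was 1.64 and passed (adjusted p = 0.0172), and the KO value was 3.49 (adjusted p = 0.000625). DESeq2 (adjusted p = 0.00544) and limma-voom (adjusted p = 0.00953) called Prrx2 in WT too.

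Twist2, a basic helix-loop-helix factor of dermis and other mesenchyme, was at 0.704, 0.776 and 0.946 CPM in WT NO and at 0.817, 1.21 and 1.05 CPM in WT RA. The WT groups overlapped. In KO NO it was at 0.176, 0.267 and 0.140 CPM, below every WT library, and in KO RA at 5.10, 2.08 and 2.38 CPM, above every other library. With library totals in place of TMM factors, Twist2 in KO RA replicate 3 was at 0.935 CPM, within the WT RA range of 0.712 to 1.23 CPM. Its log2 fold change in WT was 0.34 (standard error 0.45, adjusted p = 0.842). In KO Twist2 rose by 4.01 (standard error 0.50, 16.1-fold, adjusted p = 0.00192), and by 4.17 without KO RA replicate 3 (adjusted p = 0.000827). The KO NO level rests on 5.09 to 9.41 deposited counts per library.

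Twist1, its paralog and a regulator of cranial neural crest and mesoderm, was among the highest members throughout. Its levels were 50.8, 38.7 and 17.3 CPM in WT NO, 38.0, 37.4 and 40.2 CPM in WT RA, 31.0, 38.8 and 34.3 CPM in KO NO and 54.7, 40.8 and 34.9 CPM in KO RA. The groups overlapped in all comparisons. The log2 fold change after RA was 0.11 in WT (95% interval -0.61 to 0.84), which turned to -0.10 with library totals and -0.13 with limma-voom, and 0.33 in KO (95% interval -0.40 to 1.06).

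Snai2, the Snail family member known as Slug, was at 1.76, 1.33 and 1.56 CPM in WT NO and at 3.12, 4.22 and 3.58 CPM in WT RA. It was at 0.644, 0.770 and 1.42 CPM in KO NO and at 4.78, 2.38 and 2.08 CPM in KO RA. The RA libraries lay above the untreated ones in each genotype, and the 2 RA groups overlapped. With library totals, Snai2 in KO RA replicate 3 was at 0.818 CPM, within the KO NO range of 0.750 to 1.71 CPM. The log2 fold change was 1.23 in WT (standard error 0.42, adjusted p = 0.246) and 1.71 in KO (standard error 0.42, 3.26-fold, adjusted p = 0.0416). DESeq2 (adjusted p = 0.0480) and limma-voom (adjusted p = 0.0265) called Snai2 in WT. The KO call was lost when any 1 of 9 libraries was left out, with adjusted p of up to 0.162 (without KO NO replicate 1), and it was 0.0114 without KO RA replicate 3. The 9 libraries were WT NO replicates 1 and 2, all of WT RA and of KO NO, and KO RA replicate 1.

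Snai1, the other Snail gene measured among the members, was at 5.35, 4.07 and 4.85 CPM in WT NO and at 5.91, 3.44 and 4.20 CPM in WT RA. In KO NO it was at 8.96, 4.27 and 6.84 CPM and in KO RA at 3.66, 5.21 and 1.68 CPM. The groups overlapped in both genotypes. Its log2 fold change was -0.07 in WT (95% interval -0.96 to 0.82) and -0.90 in KO (95% interval -1.80 to -0.01, adjusted p = 0.195), so no call was made.

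Zeb1, a zinc finger and homeodomain repressor, was at 22.2, 26.6 and 18.0 CPM in WT NO and at 31.0, 27.3 and 35.9 CPM in WT RA. In KO NO it was at 12.6, 20.6 and 23.8 CPM and in KO RA at 40.3, 48.1 and 11.0 CPM. The lowest of all 12 values is that of KO RA replicate 3, while the other KO RA libraries hold the highest. The log2 fold change was 0.50 in WT (standard error 0.44, adjusted p = 0.732) and 0.80 in KO (standard error 0.44, adjusted p = 0.273). It was 1.20 in KO and passed the test without KO RA replicate 3 (adjusted p = 0.00972).

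Zeb2 was at 3.98, 6.84 and 15.4 CPM in WT NO and at 4.90, 10.1 and 5.49 CPM in WT RA. It was at 4.04, 5.42 and 8.40 CPM in KO NO and at 20.4, 21.5 and 12.9 CPM in KO RA. The WT groups overlapped and the KO groups did not. With library totals, Zeb2 in KO RA replicate 3 was at 5.07 CPM, within the KO NO range of 4.70 to 10.1 CPM. Its log2 fold change of -0.35 in WT (standard error 0.49, adjusted p = 0.851) turned to 0.12 with limma-voom. In KO it was 1.62 (standard error 0.49, adjusted p = 0.0827), and without KO RA replicate 3 it was 1.80 and passed (adjusted p = 0.0347), as it also did without WT NO replicate 3 (1.63, adjusted p = 0.0363).

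Foxc1 was at 3.35, 3.14 and 0.732 CPM in WT NO and at 3.12, 3.20 and 2.77 CPM in WT RA. Its levels in KO NO, 1.35, 1.33 and 1.37 CPM, were all below those in KO RA, 3.52, 1.91 and 1.78 CPM. With library totals, Foxc1 in KO RA replicate 3 was at 0.701 CPM, below the KO NO range of 1.46 to 1.64 CPM. Neither change passed the test, with a log2 fold change of 0.34 in WT (95% interval -0.75 to 1.42) and 0.84 in KO (95% interval -0.27 to 1.94).

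Foxc2 was at 0, 0 and 0.0305 CPM in WT NO and at 0.0586, 0 and 0.0279 CPM in KO NO, which is under the floor in each library. In WT RA it was at 0.240, 0.0970 and 0.143 CPM and in KO RA at 0.451, 0.273 and 0.496 CPM. The highest deposited count was 10.3, in KO RA replicate 1. The RA libraries were above the untreated libraries in both genotypes. With no filter on low counts it was fitted but not called, in WT (adjusted p = 0.547) or in KO (adjusted p = 0.208).

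**Figure D2:**
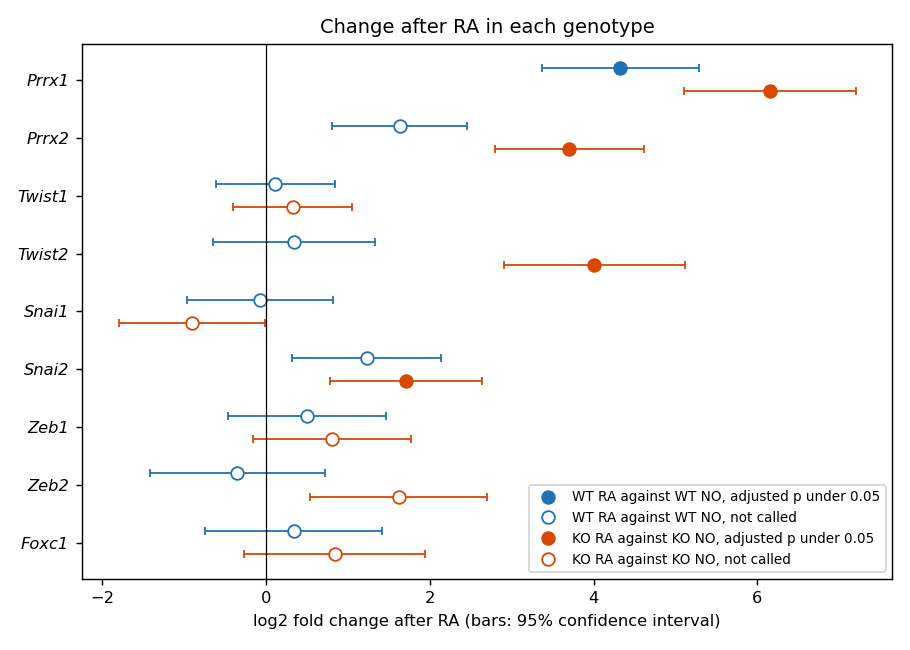
log2 fold change after RA of the 9 genes tested, for WT (blue) and KO (orange), with bars for 95% confidence intervals and filled points for adjusted p under 0.05. Prrx1 has the largest value in each genotype, 4.33 in WT and 6.15 in KO, while the intervals of Twist1 span 0 in both.

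The change after RA was also compared between the genotypes, as the KO change minus the WT change. No gene of the 16502 tested passed at adjusted p under 0.05 by edgeR's quasi-likelihood test (0%), so no member did. At unadjusted p under 0.05 there were 1423 genes (8.62%), of which 913 were higher in KO (5.53%), and 4 of the 9 members (Prrx1, Prrx2, Twist2 and Zeb2) were among these 913. No member was among those lower in KO (3.09%). DESeq2 called 309 genes (1.87%) and limma-voom 985 (5.97%). The largest member difference was that of Twist2, 3.67 on the log2 scale (standard error 0.66, unadjusted p = 0.000151, adjusted p = 0.130, rank 19). For Prrx2 the difference was 2.07 (95% interval 0.90 to 3.25, adjusted p = 0.327), for Zeb2 1.97 (95% interval 0.46 to 3.49, adjusted p = 0.469) and for Prrx1 1.82 (95% interval 0.55 to 3.10, adjusted p = 0.430). Twist2 passed without KO RA replicate 3, with a difference of 3.82 (adjusted p = 0.0300), where 1.34% of all genes did. Twist2 (adjusted p = 0.000111) and Prrx2 (adjusted p = 0.0356) passed with DESeq2, and Twist2 with limma-voom (adjusted p = 0.0204). That these responses differ between the genotypes was thus not shown by edgeR's test of all 12 libraries. For Twist2 the same test passed only when KO RA replicate 3 was left out. For Twist1, Snai1, Snai2, Zeb1 and Foxc1 the intervals of the difference all spanned 0.

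Before RA, Prrx1, Prrx2 and Twist2 were lower in each KO library than in any WT library, as 15.2% of all genes were. No member passed the test of KO NO against WT NO, where 1.14% of all genes passed (0.788% higher and 0.351% lower), and 2 members (Prrx2 and Twist2) were lower at unadjusted p under 0.05, where 6.37% of all genes were. None was higher at that threshold (5.81% of all genes, 12.2% in either direction) or without overlap (15.5% of all genes). The log2 fold change was -2.04 for Twist2 (standard error 0.48, adjusted p = 0.0763), -1.60 for Prrx2 (standard error 0.39, adjusted p = 0.0864) and -0.97 for Prrx1 (standard error 0.45, adjusted p = 0.416). Both Twist2 (adjusted p = 0.0243) and Prrx2 (adjusted p = 0.0249) passed without KO RA replicate 3, a library that is in neither group and enters through the shared estimate of spread, and 8.78% of all genes were then called. DESeq2 on all 12 libraries called 2 members, where it called 6.15% of all genes, and limma-voom called 3, where it called 21.6%.

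After RA, Twist2 and Zeb2 were higher in each KO RA library than in any WT RA library, as 9.97% of all genes were. With library totals in place of TMM factors, both overlapped. KO RA replicate 3 was then at 0.935 CPM for Twist2, where WT RA was at 0.712 to 1.23 CPM. For Zeb2 it was at 5.07 CPM, where WT RA was at 4.27 to 10.3 CPM. No member passed the test of KO RA against WT RA, where 1.24% of all genes passed (0.885% higher and 0.358% lower), and 3 members (Prrx1, Twist2 and Zeb2) were higher at unadjusted p under 0.05, where 10.9% of all genes were. None was lower at that threshold (6.67% of all genes, 17.6% in either direction) or without overlap (10.9% of all genes). Twist2 differed by 1.63 on the log2 scale (standard error 0.45, adjusted p = 0.108), Zeb2 by 1.42 (standard error 0.49, adjusted p = 0.190) and Prrx1 by 0.86 (standard error 0.37, adjusted p = 0.269). Twist2 passed without KO RA replicate 3, at 1.79 (adjusted p = 0.0367), where 9.85% of all genes were called. DESeq2 on all 12 libraries and limma-voom called 2 members each, against 7.97% and 18.1% of all genes. The comparisons share groups, so their values are set side by side and not correlated.

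Since the scaling of the deposited counts corrects for gene length, levels can be compared between genes within a library. In WT NO the order of mean levels in CPM was Twist1 (35.6 ± 17.0, SD, n = 3), Zeb1 (22.3 ± 4.29), Zeb2 (8.73 ± 5.93), Snai1 (4.76 ± 0.649), Foxc1 (2.41 ± 1.45), Snai2 (1.55 ± 0.215), Prrx2 (1.29 ± 0.176), Twist2 (0.809 ± 0.124), Prrx1 (0.624 ± 0.0405) and Foxc2. The ranges of Twist1 and Zeb1, of Zeb2 and Snai1, and of Snai2 and Prrx2 overlapped, and the range of Foxc1 overlapped those of Snai2, Prrx2 and Twist2. After RA Prrx1 stood after Twist1 and Zeb1 in the order in both genotypes, at 12.6 ± 2.83 CPM in WT RA and 22.8 ± 12.4 CPM in KO RA. It was above Zeb2 in every WT RA library, and its range overlapped those of Twist1, Zeb1 and Zeb2 in KO RA. In KO NO it was at 0.315 ± 0.141 CPM, where its range overlapped those of Prrx2 and Twist2.

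As a share of the summed CPM of the 10 genes, which does not depend on how libraries are scaled to each other, Prrx1 made up 0.711% to 1.00% in WT NO and 10.4% to 14.2% in WT RA. In KO the share was 0.345% to 0.614% before RA and 10.3% to 21.1% after it. Neither pair of ranges overlapped. The share of Snai1 was 5.91% to 15.1% in KO NO and 1.85% to 3.71% in KO RA, also with no overlap, and it overlapped in WT. A share also falls when other members rise, and the CPM of Snai1 itself overlapped between KO NO and KO RA. Twist1 led in 10 of the 12 libraries and Zeb1 in WT NO replicate 3 and KO RA replicate 2. The summed level was 60.9 to 90.0 CPM in WT NO, 102 to 112 CPM in WT RA, 59.4 to 77.4 CPM in KO NO and 91.2 to 176 CPM in KO RA.

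**Figure D3:**
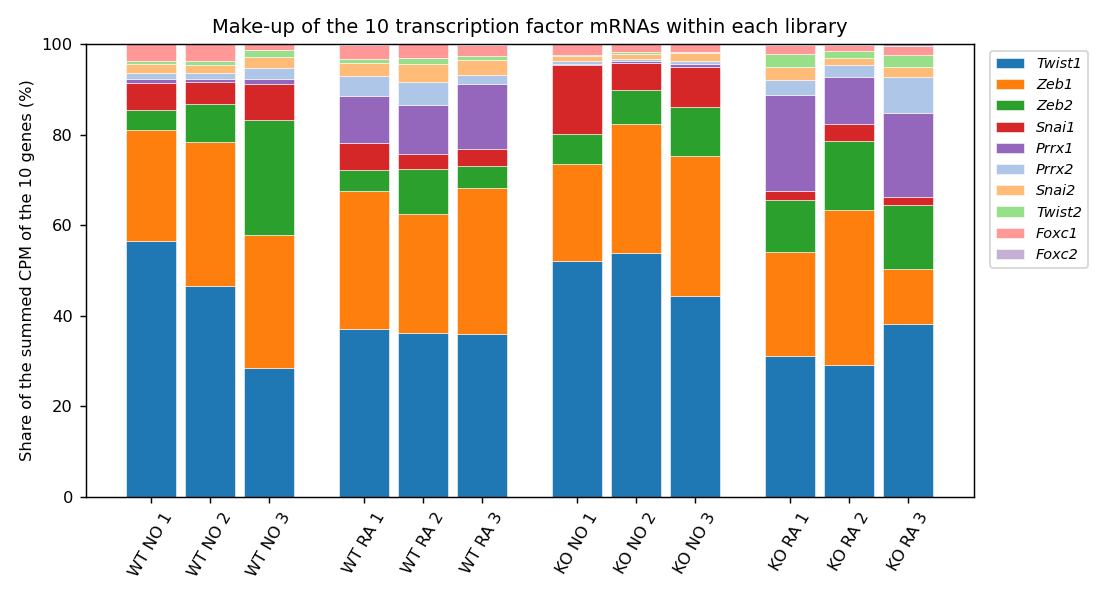
Share of each gene in the summed CPM of the 10 genes, in percent, with a bar per library. Prrx1 (purple) is at most 1.00% of the sum in the untreated libraries and at least 10.3% in the RA libraries, and Twist1 (blue) is the largest share in 10 of 12 libraries.

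Within families the balance of the paralogs was read from the ratio of their CPM in each library. The ratio of Prrx1 to Prrx2 was 0.408 to 0.559 in WT NO and 2.20 to 6.51 in WT RA, and 0.583 to 0.895 in KO NO and 2.36 to 6.17 in KO RA. Prrx2 was thus the higher of the pair in all 6 untreated libraries and Prrx1 in all 6 RA libraries. The ratio of Snai1 to Snai2 was 3.04 to 3.12 in WT NO and 0.816 to 1.89 in WT RA, and 4.80 to 13.9 in KO NO and 0.764 to 2.19 in KO RA. It was lower in each RA library than in any untreated library. For Twist1 to Twist2 the ratio was 18.3 to 72.2 in WT NO and 30.8 to 46.5 in WT RA, which overlap, while in KO it was 146 to 246 before RA and 10.7 to 19.6 after it. Zeb1 exceeded Zeb2 in all libraries but KO RA replicate 3, with ratios of 1.17 to 5.58 in WT NO, 2.69 to 6.53 in WT RA, 2.84 to 3.81 in KO NO and 0.854 to 2.23 in KO RA.

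**Figure D4:**
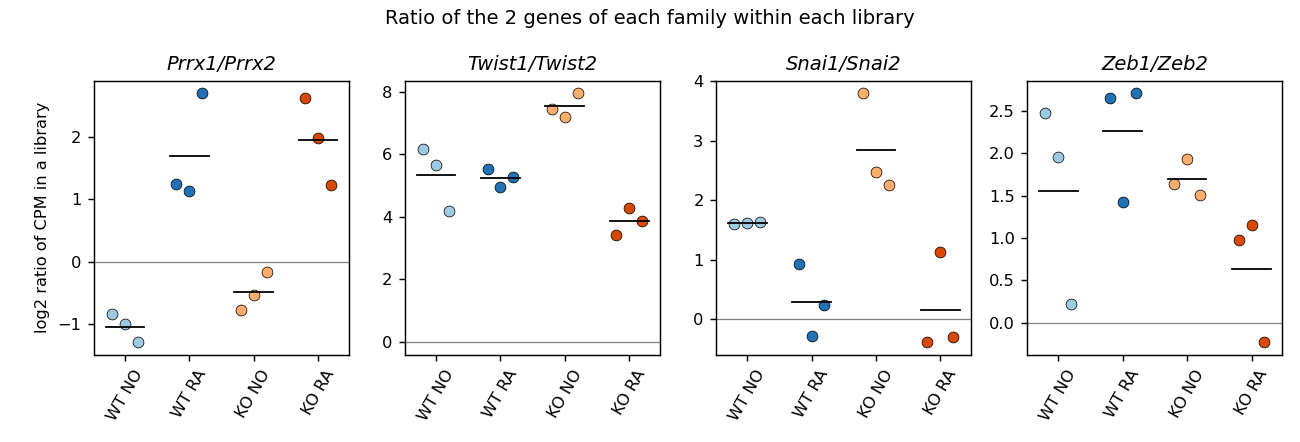
log2 of the ratio of the CPM of 2 family members in each library, with lines at group means and a grey line where both are equal. Prrx1/Prrx2 lies under 0 in untreated and above 0 in RA libraries, and Twist1/Twist2 in KO has ratios of 146 to 246 before RA and of 10.7 to 19.6 after it.

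Twist factors work as dimers with E proteins, and Id proteins sequester E proteins. Of 8 genes of these kinds tested, none passed in WT and 3 rose in KO after RA, with a median log2 fold change of 0.21 in WT and 0.26 in KO. Among all genes 0.406% were called in WT, and 3.89% as higher in KO. The E protein gene Tcf12 rose in KO by 0.98 (standard error 0.20, adjusted p = 0.0192), from 74.4, 75.8 and 94.5 CPM to 174, 142 and 169 CPM. The inhibitor Id2 rose in KO by 2.20 (standard error 0.52, adjusted p = 0.0349), from 19.5 to 31.2 CPM to 72.5, 55.5 and 226 CPM. The highest of these is KO RA replicate 3, and without it the value was 1.31 (adjusted p = 0.0231). Hand2, another dimer partner of E proteins, was under the floor in KO NO and at 2.17, 1.87 and 6.44 CPM in KO RA (adjusted p = 0.0110). It was at most at 0.0916 CPM in the untreated libraries and passed the filter on low counts only with the RA libraries. Its rise is therefore not independent of the filter. Leaving out KO RA replicate 3 gave 1 gene in WT and 4 in KO, all higher, against 5.65% and 8.48% of all genes.

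Snail and Zeb factors repress through complexes with CtBP, LSD1, CoREST, histone deacetylases, Ajuba LIM proteins and Polycomb. Of 12 genes for such proteins, none passed in WT and 1 fell in KO after RA, against 0.406% and 5.48% of all genes called. Their medians were -0.15 and -0.08. Ajuba fell by 1.18 on the log2 scale in KO (standard error 0.29, adjusted p = 0.0397). With KO RA replicate 3 left out, 1 rose and 2 fell in WT and 1 rose and 4 fell in KO, where 10.8% and 16.0% of all genes were called.

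TGF-β, BMP and Wnt ligands are known inducers of several of the 10 genes. Of 16 such ligand, receptor, SMAD and related genes, 1 fell in WT, while 4 rose and 1 fell in KO. In either direction, 0.406% of all genes were called in WT and 5.48% in KO. Tgfb1 was the gene that fell in both, by 2.09 in WT (standard error 0.31, adjusted p = 0.0307) and by 1.73 in KO (standard error 0.31, adjusted p = 0.0114). Tgfb2, a ligand of the developing brain and heart, rose in KO by 2.82 (standard error 0.33, adjusted p = 0.00140), from 2.26, 1.93 and 2.79 CPM to 18.1, 11.3 and 19.9 CPM. Bmp2 rose by 3.65 (standard error 0.62, adjusted p = 0.00857) and Bmp4 by 1.87 (standard error 0.38, adjusted p = 0.0193), and Wnt5a also rose, by 1.74 (adjusted p = 0.0387). Their median log2 fold change was 0.11 in WT and 0.40 in KO. Without KO RA replicate 3, 4 rose and 1 fell in WT, and 6 rose and 1 fell in KO, where 5.65% and 8.48% of all genes were called as higher and 5.13% and 7.54% as lower.

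Of 24 mesenchymal effector genes, for fibrillar collagens, matrix, cytoskeletal and adhesion proteins, 3 rose in WT and 11 in KO after RA and none fell, with medians of 0.66 and 1.86. Among all genes 0.321% passed as higher in WT and 3.89% in KO, with medians of -0.01 and 0.11. Cdh11, the cadherin of mesenchyme, was at 1.23, 1.15 and 0.977 CPM in WT NO, 8.75, 9.07 and 9.46 CPM in WT RA, 0.498, 0.415 and 0.503 CPM in KO NO and 34.7, 18.5 and 15.7 CPM in KO RA. It rose by 3.02 in WT (standard error 0.31, adjusted p = 0.00531) and by 5.59 in KO (standard error 0.35, adjusted p = 7.63e-05). The collagen genes Col3a1 (5.18 in WT, adjusted p = 0.00531, and 6.42 in KO, adjusted p = 0.000294) and Col1a2 (3.05 in WT, adjusted p = 0.0162, and 5.51 in KO, adjusted p = 0.000168) rose in both. Vim, for the filament protein vimentin, rose in KO by 2.06 (standard error 0.30, adjusted p = 0.00472), and Cdh2, for N-cadherin, by 1.28 (standard error 0.23, adjusted p = 0.0102). Cdh2 also belongs to the neural progenitor markers used here, and the paper names it as a marker of such cells. Vim was already at 178, 202 and 231 CPM in WT NO. Neither rise is thus particular to mesenchyme. In WT the log2 fold changes of Vim and Cdh2 were 0.70 (adjusted p = 0.351) and 0.05 (adjusted p = 0.968). Fn1, for fibronectin, had 0.96 in KO (adjusted p = 0.0585) and 0.54 in WT (adjusted p = 0.442), and was not called. Leaving out KO RA replicate 3 gave 6 genes in WT and 13 in KO, all higher, against 5.65% and 8.48% of all genes. Fn1 was among the 13 (1.07, adjusted p = 0.0119).

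Of 27 epithelial genes, none passed in WT and 1 fell in KO, against 0.406% and 5.48% of all genes called. Their medians were -0.32 and -1.08. The one that fell was Cldn6, for a tight junction claudin, by 3.35 (standard error 0.52, adjusted p = 0.00583), from 22.3, 8.77 and 11.6 CPM to 1.13, 1.98 and 0.991 CPM. At unadjusted p under 0.05, 12 of the 27 were lower and none higher in KO after RA, against 9.42% and 15.8% of all genes. Before RA, Cldn6 (2.57, adjusted p = 0.0336) and the protease gene Prss8 (3.91, adjusted p = 0.0272) were higher in KO NO than in WT NO, where the list's median was 1.52. Prss8 was near the floor in WT NO, at 0.141, 0.0739 and 0.0610 CPM, and at 1.93, 1.45 and 0.949 CPM in KO NO. In that comparison 10 of the 27 were higher and none lower at unadjusted p under 0.05, against 5.81% and 6.37% of all genes, and 6 were called as higher without KO RA replicate 3, against 4.43%. Cdh1 was at 8.95, 8.65 and 8.88 CPM in WT NO, 7.69, 3.44 and 8.98 CPM in WT RA, 38.4, 18.9 and 30.5 CPM in KO NO and 7.63, 15.03 and 2.38 CPM in KO RA. The KO NO libraries were the highest and stood apart from WT NO and from KO RA. Its log2 fold change after RA was -0.40 in WT (standard error 0.54, adjusted p = 0.849) and -1.79 in KO (standard error 0.55, adjusted p = 0.0844), and neither was called. Epcam, another epithelial adhesion gene, had -1.07 in KO (standard error 0.28, adjusted p = 0.0525) and 0.06 in WT (adjusted p = 0.968). Without KO RA replicate 3, 2 rose and 2 fell in WT and 5 fell in KO, of 28 that then passed the filter, where 10.8% and 16.0% of all genes were called. Cdh1 (-1.38, adjusted p = 0.0475) and Epcam (-0.97, adjusted p = 0.0372) were among the 5.

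**Figure D5:**
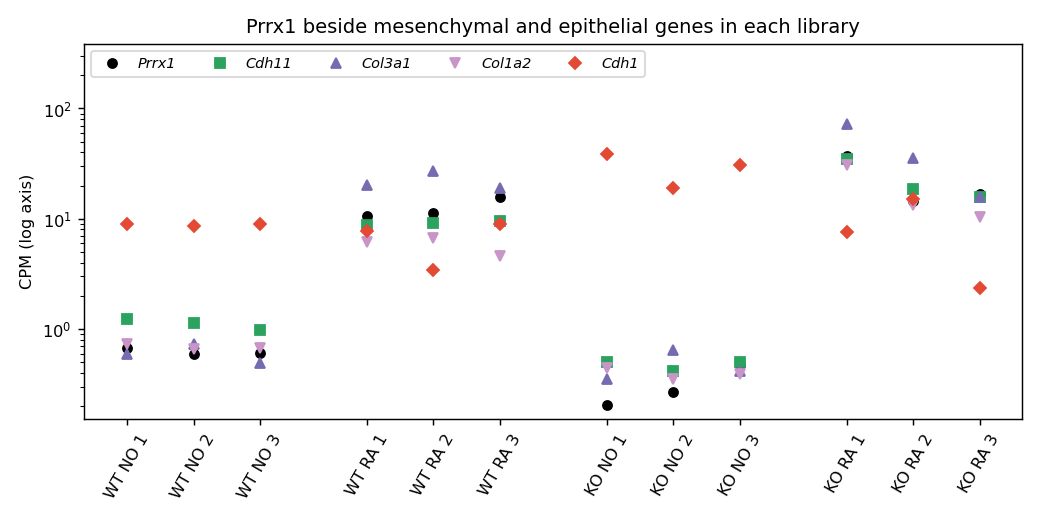
Prrx1 beside Cdh11, Col3a1, Col1a2 and Cdh1 in each library, in CPM (log axis). Prrx1, Cdh11, Col3a1 and Col1a2 are at most 1.23 CPM in all untreated libraries and at least 4.59 CPM in all RA libraries, whereas Cdh1 is highest in KO NO, at 18.9 to 38.4 CPM.

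The summed level of 9 mesenchymal and fibroblast markers was higher after RA in both genotypes. It was 11.1 to 23.2 CPM in WT NO, 58.2 to 77.2 CPM in WT RA, 15.8 to 15.9 CPM in KO NO and 70.8 to 467 CPM in KO RA. Mean levels of Thy1 fell from 3.00 to 0.946 CPM in WT and from 3.13 to 1.71 CPM in KO. That of Lum fell in WT, from 0.867 to 0.465 CPM, while the means of the other markers were higher after RA. All 9 were above the floor in each group except Col1a1 in KO NO. The highest sum was that of KO RA replicate 3, of which Dcn, for the matrix protein decorin, made up 345 CPM. Prrx1 was at 16.8 CPM in that library and at 37.1 CPM in KO RA replicate 1. The 8 haematopoietic markers summed to at most 1.28 CPM in WT NO, WT RA and KO NO and to 3.78 to 5.75 CPM in KO RA, with Ptprc, Itgam, Csf1r and Hbb-bt at the floor in KO RA. Endothelial markers summed to 16.0 to 41.6 CPM in WT NO, 14.1 to 14.5 CPM in WT RA, 32.2 to 37.8 CPM in KO NO and 17.8 to 34.8 CPM in KO RA. The 8 neuron markers summed to 80.8 to 113 CPM in WT NO, 142 to 164 CPM in WT RA, 72.4 to 90.6 CPM in KO NO and 146 to 208 CPM in KO RA. The 6 epithelial markers summed to 90.8 to 147 CPM in WT NO, 79.3 to 137 CPM in WT RA, 144 to 213 CPM in KO NO and 72.9 to 107 CPM in KO RA. Neural crest and Schwann markers summed to 9.83 to 20.7 CPM in WT NO, 5.67 to 6.35 CPM in WT RA, 5.72 to 9.49 CPM in KO NO and 2.48 to 7.84 CPM in KO RA, with Sox10 at the floor in the first 3 of these groups. Those of paraxial mesoderm summed to 69.8 to 86.1, 15.4 to 28.0, 30.9 to 74.6 and 9.51 to 18.8 CPM in the same order, with Msgn1 at the floor in all groups. The part of such cells in the levels of the 10 genes was not tested.

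The genes with the most similar pattern were found by the root mean square difference of centred log2 CPM over the 12 libraries. Nearest to Prrx1 were Cdh11 (0.531), Nhlh2 (0.557) and Col3a1 (0.564), where the median gene was at 2.63. Prrx2 was nearest to Cavin2 (0.401), Gadd45g (0.431) and Gxylt2 (0.473), and Twist2 to Slc24a3 (0.393), Lgi2 (0.452) and Dchs1 (0.483). Nearest to Snai2 were Capn6 (0.298), Hdac7 (0.308) and Capn2 (0.356). The 3 nearest genes were Slc35f1, Pakap and 6330403K07Rik for Zeb2 (0.352 to 0.407), Hdac9, Cntfr and Rhobtb3 for Foxc1 (0.251 to 0.357) and Mex3a, Fam168a and Gprc5b for Zeb1 (0.224 to 0.232). For Twist1 they were Cep350, Dnajb9 and Clcn4 (0.139 to 0.204), and for Snai1 Vps13b, ENSMUSG00000120240 and Hdac5 (0.225 to 0.242). These distances describe 12 libraries, and within each of them all genes share the same depth and scaling. Members with a small range have small distances to many genes.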

How the data were processed

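The authors extracted RNA from 12 cultures, had mRNA libraries prepared, and aligned the reads to GRCm39 with STAR and quantified them with Salmon in the nf-core RNA-Seq pipeline. The deposited table holds the authors' estimated counts per gene, scaled from TPM, so that gene length is corrected for while library size is not. In genes above 0 in 1 library the median count fell from 10.1 in the shortest of 5 length classes to 0.807 in the longest. Per the labels' processing notes, DESeq2 was used for the study's own comparisons.

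Estimated counts were rounded, filtered by filterByExpr with the 4 groups, scaled by TMM factors and tested with edgeR 4.0.16 in R 4.3.3 (robust quasi-likelihood fit of all 12 libraries, 5 comparisons, Benjamini-Hochberg adjustment over all 16502 genes, calls at adjusted p under 0.05). Genes with at most 3 counts in each library of a group were taken as at the floor there and given no fold change. Some genes of the lists, among them Hand2, Osr1, Tfap2b and Bmp2, passed the filter on low counts only with the RA libraries. Their rises after RA, and the counts and medians they enter, are not independent of that filter. Intervals cover the spread between passages, not errors in assigning reads. As the counts are scaled from TPM, 3 counts stand for different numbers of fragments in short and long genes. Intervals and the floor are therefore no exact measure of counting error. The edgeR steps were also run on simulated counts with known changes, which held no outlying library and no scaling for gene length. The 95% intervals and standard errors came from the quasi-likelihood F statistic. Promoters were read from GRCm39 with the GENCODE annotation in Python 3.11.15, and figures were drawn with matplotlib 3.10.9.

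Alternatives were DESeq2 1.42.0 on all libraries and on the 2 groups compared, its size factors in edgeR, library totals, other filters, edgeR on the 2 groups, limma-voom of limma 3.58.1 with quality weights, the replicate number as a block, and each library left out in turn. The members and lists were chosen with earlier results of these data known. Named were all members, at most 3 higher and 3 lower genes of each list and comparison by smallest adjusted p, Cdh1, Epcam, Cdh2, Vim, Fn1, RA targets, Faf2 and the 3 genes nearest to each member in pattern. Dcn, Thy1, Lum, Wnt5a, Prss8, Foxd3 and Sox10 were named after their values were seen.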

Additional observations from a re-analysis of the deposited data

How the results depend on the processing

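Of the 10 genes, Prrx1 in KO (20 alternatives), Prrx2 in KO (21) and Twist2 in KO (20) passed the test under every alternative that gave a value, and Snai2 in KO passed in 8 of 21. The number of genes called over the whole table depended strongly on the choices made, and the cause was not tested. Between RA and untreated WT, 67 genes became 0 with library totals, 43 with no filter, 36 with at least 10 counts in every library, 924 with DESeq2 on all libraries, 1886 with DESeq2 and 545 with edgeR on the 2 groups, and 3562 with limma-voom. In KO, 904 genes became 140 with library totals, 583 with no filter, 2632 and 1617 with DESeq2, 196 with edgeR on 2 groups and 4531 with limma-voom. For the difference of the responses, 0 became 309 with DESeq2 and 985 with limma-voom. Between the untreated genotypes, 188 became 112 with library totals, 43 with at least 10 counts, 1015 and 2013 with DESeq2, 718 with edgeR on 2 groups and 3566 with limma-voom. Between the RA genotypes, 205 became 89, 80, 1315 and 675, 16 and 2987 under the same 6 choices. Leaving out 1 library gave 0 (without WT NO replicate 1) to 1868 genes in WT, 194 (without KO NO replicate 1) to 2776 in KO, 0 to 232 for the difference, 40 (without KO NO replicate 1) to 1521 for the untreated genotypes and 19 (without WT RA replicate 1) to 1707 for the RA genotypes, the highest always without KO RA replicate 3. Members called became 0 with library totals, 0 with at least 10 counts (which leaves out Prrx1 and Twist2), 3 with either DESeq2 and 3 with limma-voom in WT, and 2 with at least 10 counts in KO. The shares of all genes called in WT were 0%, 0.311%, 5.60% and 12.8%, and 21.6% under these choices, against 0.406% in the main fit. In KO 5.71% of all genes were called with at least 10 counts. Members called became 2 with DESeq2 and 1 with limma-voom for the difference, 2 with either DESeq2 and 3 with limma-voom for the untreated genotypes, and 2 with either DESeq2 and 2 with limma-voom for the RA genotypes. Of all genes, 1.87% and 5.97% were then called for the difference. The shares were 6.15%, 13.2% and 21.6% for the untreated and 7.97%, 4.54% and 18.1% for the RA genotypes. Leaving out 1 library gave 0 to 2 members in WT, 3 to 6 in KO, 0 to 1 for the difference, 0 to 2 for the untreated and 0 to 1 for the RA genotypes. The shares of all genes in these fits were 0% to 10.8% in WT and 1.12% to 16.0% in KO. They were 0% to 1.34% for the difference, 0.231% to 8.78% for the untreated and 0.109% to 9.85% for the RA genotypes.

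Whether samples with the same replicate number belong together is not given in the sources used here. Their deviations from the group means correlated at -0.167 to 0.0677. Samples with different numbers were not compared, so these values do not decide it. With the replicate number as a block, 10 genes were called in WT, 467 in KO, 56 between the untreated and 59 between the RA genotypes. Changes of sign were small values. Twist1 had -0.10 with library totals and -0.13 with limma-voom in WT, and 0.061 with library totals and 0.046 with the block between the untreated genotypes. Zeb2 had 0.12 in WT and 0.15 between the untreated genotypes with limma-voom, and Zeb1 -0.0038 between the RA genotypes with the block. Leaving out 1 library gave ranges across 0 in WT for Foxc1 (-0.095 to 0.65), Snai1 (-0.32 to 0.087), Twist1 (-0.21 to 0.46) and Zeb2 (-0.75 to 0.34). It did so between the untreated genotypes for Twist1 (-0.37 to 0.31) and Zeb2 (-0.91 to 0.14), for the difference for Twist1 (-0.13 to 0.55) and Zeb1 (-0.052 to 0.70), and between the RA genotypes for Zeb1 (-0.28 to 0.49). With library totals the median of all genes moved from -0.01 to -0.26 in WT and from 0.11 to -0.17 in KO, and the share of calls that were higher from 69.1% to 89.3% between the untreated and from 71.2% to 89.9% between the RA genotypes. Low counts limit Prrx1 and Twist2 before RA and Foxc2 throughout.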

Other observations

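Other transcription factors of mesenchyme and neural crest were read in the same comparisons. Of 12 other mesenchyme transcription factor genes tested, of 19 listed, none passed in WT, and in KO 3 rose and 1 fell, with a median log2 fold change of 0.35 in WT and 1.48 in KO. Among all genes 0.406% were called in WT and 5.48% in KO. Six2, a homeodomain factor of kidney and head mesenchyme, was at 9.72, 8.32 and 6.26 CPM in WT NO, 29.6, 30.8 and 26.4 CPM in WT RA, 1.32, 2.61 and 2.62 CPM in KO NO and 25.9, 25.2 and 4.76 CPM in KO RA, and it rose in KO by 3.10 (standard error 0.54, adjusted p = 0.00994). Alx4, a paired-type homeodomain factor like PRRX1, rose in KO by 2.92 (standard error 0.50, adjusted p = 0.00886) and Osr1 by 5.03 (standard error 0.99, adjusted p = 0.0168). Osr1 was at 0.0586, 0.0296 and 0.140 CPM in KO NO, under the floor in replicates 1 and 2, and at 3.16, 1.94 and 2.87 CPM in KO RA. It passed the filter on low counts only with the RA libraries. Msx1, an effector of BMP signalling, fell in KO by 2.65 (standard error 0.48, adjusted p = 0.0119), from 14.7, 5.27 and 8.63 CPM to 1.85, 1.06 and 1.68 CPM. With KO RA replicate 3 left out, 5 rose and 1 fell in KO, and 1 rose and 2 fell in WT, of 14 tested, where 16.0% and 10.8% of all genes were called.

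Of 12 neural crest transcription factor genes tested, of 14 listed, 2 rose in WT, and in KO 4 rose and 1, again Msx1, fell. Among all genes 0.406% were called in WT and 5.48% in KO. Sox9, a factor of neural crest and cartilage, was at 0.423, 0.628 and 0.427 CPM in WT NO, 3.65, 3.15 and 3.11 CPM in WT RA, 0.264, 0.118 and 0.251 CPM in KO NO and 8.67, 5.38 and 5.85 CPM in KO RA. It rose by 2.74 in WT (standard error 0.37, adjusted p = 0.0196) and by 4.94 in KO (standard error 0.41, adjusted p = 0.000191). Tfap2b was under the floor in WT NO and at 3.99, 8.34 and 2.53 CPM in WT RA (adjusted p = 0.0481), and Ets1 rose in KO by 1.52 (standard error 0.24, adjusted p = 0.00671). Tfap2b passed the filter on low counts only with the RA libraries. Sox10, a defining factor of migrating neural crest, was at the floor in WT NO, WT RA and KO NO and at most at 0.136 CPM in KO RA. Foxd3, a factor of premigratory crest, was at 5.74, 9.50 and 19.0 CPM in WT NO and 0.352, 0.178 and 0.195 CPM in KO NO, and was lower in KO NO by 5.54 (standard error 0.65, adjusted p = 0.00338). With KO RA replicate 3 left out, 5 rose and 2 fell in WT, and 5 rose and 1 fell in KO, where 10.8% and 16.0% of all genes were called.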
